A study of Mus musculus with 11 samples.

Results

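The cardiac transcription factors described here are 10 genes taken as a list by symbol: Gata4, Nkx2-5, Tbx5, Tbx20, Hand2, Mef2a, Mef2c, Mef2d, Srf and Myocd. Each matched 1 of the 25006 Ensembl gene identifiers in the count tables, and all 10 were among the 14779 genes that passed the filter on low counts. RNA came from the left ventricle of 11 mice, with 1 library for each mouse, in naive hearts and in infarcted tissue taken 9 days after permanent ligation of the left anterior descending coronary artery (myocardial infarction, MI). The study's methods give 9 days, whereas its results text gives 1 week after MI. There were 2 naive control and 3 MI control libraries. Another 3 naive and 3 MI libraries came from mice deficient in Vegfc in myeloid cells, labelled Vegfc fl/fl ; LysMCre. The label's genotype field gives the controls as Vegfc fl/fl, and the study's figure legend for these data also names Vegfc fl/fl mice among them. The extraction protocol and the study's methods instead name LysMCre mice as controls, so it stayed unclear which allele the groups shared. LysMCre expresses Cre recombinase from the Lyz2 locus, which is known for its activity in macrophages and neutrophils. Ages are not given in the sources used here.

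Libraries held 10824989 to 26782728 counts, and 3 counts, taken as the floor of detection, came to 0.101 to 0.363 CPM (counts per 1000000, with edgeR's TMM scaling of library sizes), a limit that covers counting error only. Summed over 14 cardiomyocyte markers, the level was 59110 to 70970 CPM in the 5 naive libraries and 2058 to 17510 CPM in the 6 MI libraries, so muscle transcripts were present in every library. Vegfc, the targeted gene, counted over all its exons and all cells, was at 25.1 and 34.7 CPM in naive control, 21.9 to 45.5 CPM in MI control, 27.45 to 34.5 CPM in naive Vegfc-deficient and 22.45 to 29.4 CPM in MI Vegfc-deficient libraries. These groups overlapped, and the log2 fold change between the genotypes was 0.045 in naive hearts (95% confidence interval -0.59 to 0.68, adjusted p = 1, edgeR) and -0.27 after MI (interval -0.83 to 0.29, adjusted p = 0.824, edgeR). Lyz2, the locus of the Cre insertion, stood at 12.4 to 1392 CPM in 5 of the 6 Vegfc-deficient libraries and at 2121 to 5380 CPM in the controls. M149, whose label says naive and Vegfc-deficient, had 4565 CPM of it, a level within the control range. Leaving out M149 changed neither the direction nor the call of any of the 10 genes in the comparisons run. Xist ranged from 0.624 to 11.8 CPM before and from 188 to 403 CPM after MI, while 4 Y-linked genes summed to 152 to 195 CPM and to 0 to 1.85 CPM. The sex of the mice and MI therefore cannot be told apart in any comparison of MI with naive hearts. In bulk tissue, fewer cells of a type and less RNA per cell cannot be told apart either.

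These factors form the core regulatory network that builds the heart and keeps cardiomyocytes differentiated. GATA4, a zinc finger protein, NKX2-5, a homeodomain protein, and TBX5, a T-box protein, bind one another and act together at promoters of cardiac genes. TBX20 is a second T-box factor, known mainly as a repressor and needed in the adult myocardium. HAND2 is a basic helix-loop-helix factor. MEF2A, MEF2C, MEF2D and SRF share the MADS box, by which they bind A/T-rich sites, the MEF2 site and the CArG box. MYOCD, myocardin, binds no DNA by itself but is a strong co-activator of SRF in cardiac and smooth muscle.

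To show the sites by which these factors are known to bind, promoter windows from RefSeq (GRCm38.p6), running from 250 bases before to 50 bases after the start, were searched on both strands. Windows were found for 7 of the 10 genes (9 windows) and not for Gata4, Tbx5 and Myocd. A GATA motif (the letters AGATAA, or the form AGATAG, or the form TGATAA, or the form TGATAG) was in 1 of the 7, Hand2, against 29.8% of all 32851 windows. The NKX2-5 motif CAAGTG was in 2, Hand2 and Mef2c, against 13.6% of all windows. The T-box letters AGGTGT were in 1, Mef2c, against 13.7%, and the longer AGGTGTGA, which contains them, in 0, against 1.28%. A MEF2 site was in 1, Mef2a, against 3.19%, and a CArG box in 1, Srf, against 1.63%. Printed below, on the gene's own strand and without bases annotated as exons of the gene, are Tbx20, the member that was higher after MI, Hand2, whose window holds motifs of 2 other families of the list, Srf, whose window holds 2 motifs of its own protein, and Nppa, encoding atrial natriuretic peptide, a textbook target of GATA4, NKX2-5 and TBX5. Capitals mark the motifs, which read as the reverse complement where they were found on the opposite strand.
Tbx20 (chr9:24774304-24774553, minus strand): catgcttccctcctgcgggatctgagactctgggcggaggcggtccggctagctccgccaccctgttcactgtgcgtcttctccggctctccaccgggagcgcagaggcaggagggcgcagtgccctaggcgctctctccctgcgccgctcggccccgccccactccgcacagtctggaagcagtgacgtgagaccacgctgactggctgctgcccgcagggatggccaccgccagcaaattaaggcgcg
Hand2 (chr8:57320733-57320982, plus strand): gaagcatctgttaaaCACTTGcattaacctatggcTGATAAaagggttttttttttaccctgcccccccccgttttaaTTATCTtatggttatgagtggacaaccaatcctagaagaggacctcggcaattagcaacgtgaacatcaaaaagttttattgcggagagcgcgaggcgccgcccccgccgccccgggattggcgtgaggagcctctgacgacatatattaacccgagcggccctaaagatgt
Srf (chr17:46556176-46556412, minus strand): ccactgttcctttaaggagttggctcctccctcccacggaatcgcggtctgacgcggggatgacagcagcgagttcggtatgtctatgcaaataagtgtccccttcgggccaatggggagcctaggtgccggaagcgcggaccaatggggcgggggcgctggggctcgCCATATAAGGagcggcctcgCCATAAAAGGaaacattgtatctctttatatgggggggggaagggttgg
Nppa (chr4:148000472-148000721, plus strand): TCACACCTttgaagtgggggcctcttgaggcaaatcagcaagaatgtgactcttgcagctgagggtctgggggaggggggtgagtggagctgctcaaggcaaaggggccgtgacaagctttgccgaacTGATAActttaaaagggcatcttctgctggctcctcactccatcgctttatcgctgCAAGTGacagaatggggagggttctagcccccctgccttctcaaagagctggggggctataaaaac
The Tbx20 window held none of the motifs searched. In Srf, 2 CArG boxes lay at -82 to -73 and -62 to -53 from the start. Hand2 had GATA letters at -215 to -210 and -172 to -167 and the NKX2-5 letters at -235 to -230. In Nppa, the long T-box letters at -250 to -243, the GATA letters at -122 to -117 and the NKX2-5 letters at -66 to -61 stood in 1 window. Such matches describe letters and do not show that a factor was bound.

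In naive control hearts, the level per kilobase of annotated exon ordered the genes as Nkx2-5 (30 ± 3.66 CPM per kilobase, SD, n = 2), Srf (21.4 ± 4.05), Gata4 (17.9 ± 3.27), Hand2 (12.3 ± 0.999), Mef2a (10.6 ± 0.0718), Mef2d (7.30 ± 0.970), Tbx20 (5.44 ± 1.1), Mef2c (3.99 ± 0.437), Tbx5 (2.08 ± 0.303) and Myocd (1.98 ± 0.378). The ranges of the neighbours Srf and Gata4 overlapped, as did those of Tbx5 and Myocd. In the MI control libraries Tbx20 led at 14.5 ± 2.31 CPM per kilobase (SD, n = 3), overlapping Srf at 13.0 ± 2.75, and Nkx2-5 stood at 3.95 ± 2.55, overlapping Mef2c at 4.13 ± 0.312. Myocd (0.407 ± 0.0956) and Tbx5 (0.343 ± 0.119) remained at the bottom, and their ranges overlapped. Nkx2-5 thus went from place 1 of 10 in the naive control group to place 8, and in the Vegfc-deficient mice from place 1 to place 7. Tbx20 went from place 7 to place 1 in the controls and from place 7 to place 3 in the Vegfc-deficient mice. In naive Vegfc-deficient libraries the range of Tbx20 overlapped those of Mef2d and Mef2c. After MI in these mice, the ranges of Srf, Gata4 and Tbx20 overlapped, and that of Nkx2-5 overlapped those of Hand2 and Mef2c. These places depend on the length used: per kilobase of the longest coding transcript, a measure added after the data were seen, Mef2a stood at place 2 in naive control hearts (28.2 ± 0.190) and at place 1 in MI control hearts (22.2 ± 1.52, n = 3), because its annotated exons add up to 14681 bases and that transcript to 5538.

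To ask how MI changed the network, MI and naive libraries were compared within each genotype by edgeR's quasi-likelihood test, with p-values adjusted over all 14779 genes (Benjamini-Hochberg, threshold 0.05). In control mice, Tbx20 rose and 7 members fell (Gata4, Nkx2-5, Tbx5, Hand2, Mef2a, Srf and Myocd), while Mef2c and Mef2d did not pass. In Vegfc-deficient mice, Tbx20 rose and 5 fell (Nkx2-5, Tbx5, Mef2a, Srf and Myocd), while Gata4, Hand2, Mef2c and Mef2d did not pass. Of all genes tested, 26.3% were called higher and 24.1% lower in control mice, and 30.0% higher and 27.7% lower in Vegfc-deficient mice. The median log2 fold change of the 10 members was -0.87 in control mice, against 0.13 over all genes, and -0.44 in Vegfc-deficient mice, against 0.097. MI and naive libraries did not overlap for 8 of the 10 genes in control mice and 7 of 10 in Vegfc-deficient mice, against 72.1% and 64.3% of all genes.

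**Figure D1:**
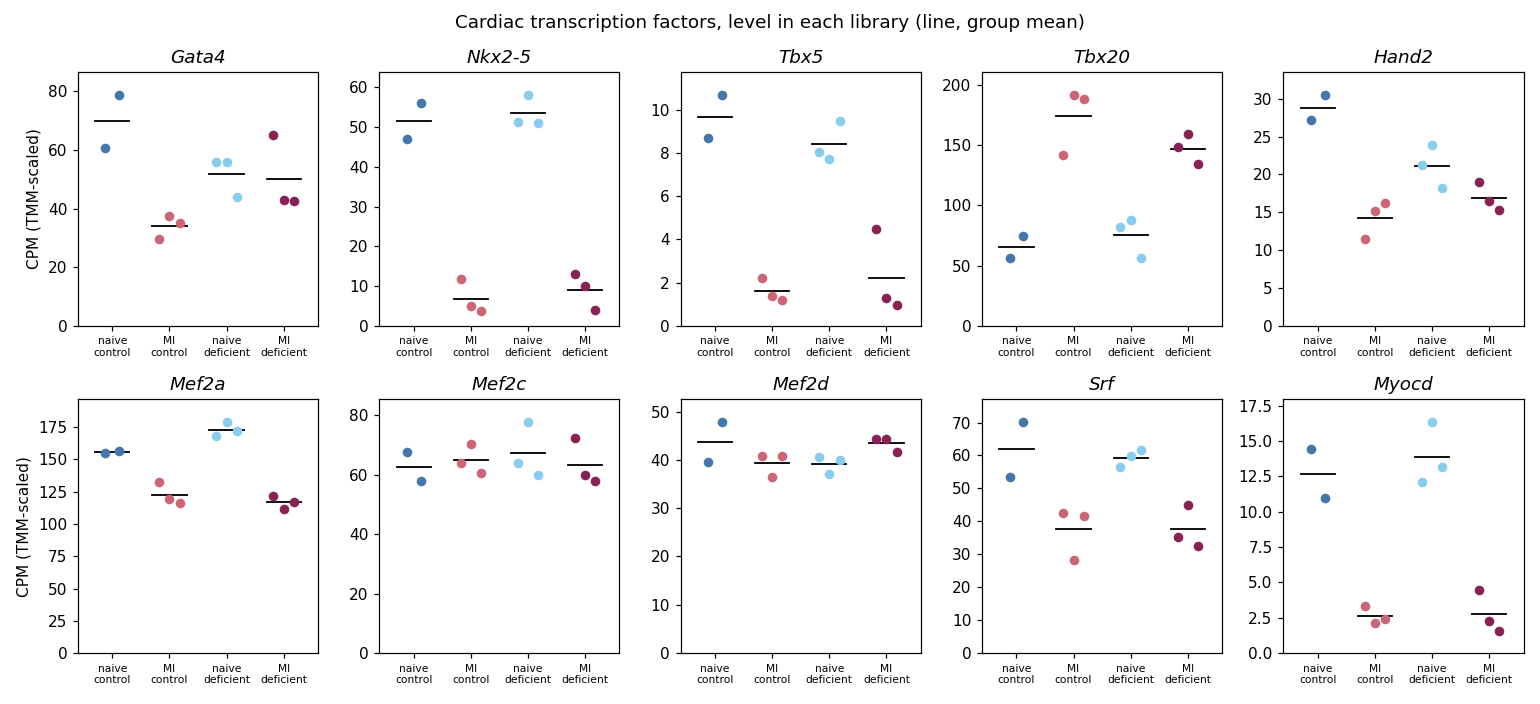
Level of each gene in TMM-scaled CPM (linear axis from 0) in every library of the 4 groups; points are libraries (2 or 3 a group) and lines are group means. Nkx2-5, Tbx5 and Myocd lie lower and Tbx20 higher in all 6 MI libraries than in any of the 5 naive ones, while Mef2c and Mef2d overlap between naive and MI libraries.

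Nkx2-5, on chromosome 17 (26838664 to 26845009, GRCm38, ENSMUSG00000015579), had the largest fall among the 10 in both genotypes. It was at 47.1 and 56.0 CPM in naive control hearts and at 11.8, 4.95 and 3.63 CPM in MI control hearts (M38, M006 and M40). In Vegfc-deficient mice it was at 51.2, 58.1 and 51.1 CPM in naive hearts and at 12.9, 10.1 and 3.94 CPM after MI (M35, M913 and M900). Every MI library was below every naive one, and the MI mean was 13.2% of the naive mean in control mice and 16.8% in Vegfc-deficient mice. The log2 fold change was -2.91 (standard error 0.50, adjusted p = 0.00124, edgeR) and -2.58 (standard error 0.47, adjusted p = 0.00108, edgeR). Without M38 the value in control mice was -3.66 (adjusted p = 0.00062, edgeR). Among the MI libraries, M35 and M38 had the most Nkx2-5 and also the most cardiomyocyte marker RNA (17510 and 13640 CPM), and M900 and M40 had the least of both (4130 and 2058 CPM of markers).

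Tbx5 (chromosome 5, 119832668 to 119885219), a partner of NKX2-5, was at 8.70 and 10.7 CPM in naive control hearts and 2.23, 1.40 and 1.17 CPM in MI control hearts. In Vegfc-deficient mice the values were 8.06, 7.75 and 9.51 CPM in naive hearts and 4.47, 1.28 and 0.964 CPM after MI, where M35 stood above the other two. All 6 MI libraries were again below all 5 naive ones. The fall was 2.59 on the log2 scale in control mice (log2 fold change -2.59, standard error 0.55, adjusted p = 0.00353, edgeR), and the log2 fold change was -1.94 in Vegfc-deficient mice (standard error 0.51, adjusted p = 0.00817, edgeR). Without M35 the latter was -2.90 (adjusted p = 0.000195, edgeR), and limma-voom gave -2.62 with all libraries (adjusted p = 6.95e-05). These levels rested on 64 to 120 counts in naive and 23 to 76 counts in MI libraries, well over the floor of 3.

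Tbx20 (chromosome 9, 24718138 to 24774303), the other T-box factor of the list, moved the opposite way. Naive control libraries were at 55.9 and 74.6 CPM and MI control libraries at 142, 191.5 and 188 CPM. Naive Vegfc-deficient libraries were at 82.0, 87.75 and 56.2 CPM and those after MI at 148, 159 and 134 CPM. No MI library overlapped a naive one. The log2 fold change was 1.41 in control mice (standard error 0.23, adjusted p = 0.00097, edgeR), a mean at 266% of the naive one, and 0.97 in Vegfc-deficient mice (standard error 0.20, adjusted p = 0.00218, edgeR), a mean at 195% of the naive one. Without the library M149, the lowest naive Vegfc-deficient one for Tbx20, the latter was 0.79 (adjusted p = 0.00579, edgeR).

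Gata4 (chromosome 14, 63198922 to 63271692) fell in control mice, from 60.7 and 78.8 CPM to 29.7, 37.6 and 35.04 CPM. This left 48.9% of the naive mean, a log2 fold change of -1.03 (standard error 0.21, adjusted p = 0.00303, edgeR). In Vegfc-deficient mice it was at 55.8, 55.9 and 43.9 CPM in naive hearts and at 65.1, 42.8 and 42.7 CPM after MI. There the groups overlapped, with M35 the highest of all MI libraries, and the log2 fold change was -0.048 (95% confidence interval -0.48 to 0.38, adjusted p = 0.843, edgeR).

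Hand2 (chromosome 8, 57320983 to 57324633) showed a like pair of values. In control mice it fell from 27.2 and 30.5 CPM to 11.5, 15.1 and 16.3 CPM, with a log2 fold change of -1.01 (standard error 0.18, adjusted p = 0.00157, edgeR). In Vegfc-deficient mice it was at 21.2, 23.8 and 18.1 CPM in naive hearts and 19.0, 16.4 and 15.35 CPM after MI, and the groups overlapped. The log2 fold change there was -0.31 (95% confidence interval -0.69 to 0.056, adjusted p = 0.129, edgeR), and limma-voom called it (log2 fold change -0.38, adjusted p = 0.0389). Exons of Hand2 overlap those of the antisense gene Hand2os1, a long non-coding RNA of the same locus. The libraries were stranded but the strand setting of the counting is not given in the sources used here, so the part of either gene's counts that came from the other is unknown. Hand2os1 was at 144 to 186 CPM in naive and 26.3 to 55.4 CPM in MI libraries, with log2 fold changes of -2.08 (standard error 0.27, adjusted p = 0.000353, edgeR) in control and -2.12 (standard error 0.25, adjusted p = 0.000111, edgeR) in Vegfc-deficient mice.

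The 3 Mef2 genes did not move together. Mef2a (chromosome 7, 67231163 to 67372858), the member with the highest CPM in naive hearts, was at 155 and 157 CPM in naive control and 132, 119.6 and 116 CPM in MI control libraries. In Vegfc-deficient mice it was at 168, 179 and 172 CPM in naive hearts and 122, 111.5 and 117 CPM after MI. No MI library reached a naive one, and the log2 fold changes were the smallest of the called ones, -0.35 in control mice (standard error 0.12, adjusted p = 0.0341, edgeR) and -0.57 in Vegfc-deficient mice (standard error 0.11, adjusted p = 0.00145, edgeR). The call in control mice was lost without naive control M45 (adjusted p = 0.135), naive control M44 (0.144), MI control M006 (0.0822) or MI control M40 (0.0969) in the same edgeR test. Lysmd4, on the other strand of Mef2a, was at 18.1 to 27.3 CPM.

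Mef2c (chromosome 13, 83504034 to 83667080) was at 67.5 and 57.8 CPM in naive control, 64.0, 70.1 and 60.5 CPM in MI control, 63.9, 77.6 and 59.8 CPM in naive Vegfc-deficient and 72.2, 59.7 and 57.9 CPM in MI Vegfc-deficient libraries. The 4 groups overlapped, and the log2 fold changes after MI were 0.050 (95% confidence interval -0.30 to 0.40, adjusted p = 0.807, edgeR) and -0.084 (interval -0.39 to 0.23, adjusted p = 0.626, edgeR), the former slightly below 0 under DESeq2's scaling. Mef2d (chromosome 3, 88142372 to 88172086) was at 39.6 and 47.8 CPM in naive control, 40.8, 36.4 and 40.9 CPM in MI control, 40.5, 37.0 and 40 CPM in naive Vegfc-deficient and 44.4, 44.4 and 41.6 CPM in MI Vegfc-deficient libraries. Its log2 fold change was -0.15 in control mice (interval -0.42 to 0.12, adjusted p = 0.326, edgeR) and 0.15 in Vegfc-deficient mice (interval -0.093 to 0.39, adjusted p = 0.262, edgeR). In the latter, every MI library was above every naive one. For both genes the intervals leave out a change of 1 on the log2 scale in either direction.

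Srf (chromosome 17, 46548329 to 46556175) fell by a similar amount in both genotypes. It was at 53.55 and 70.1 CPM in naive control and 42.6, 28.4 and 41.7 CPM in MI control hearts, with a log2 fold change of -0.72 (standard error 0.20, adjusted p = 0.0139, edgeR). In Vegfc-deficient mice it was at 56.5, 59.8 and 61.7 CPM in naive hearts and 35.3, 44.98 and 32.6 CPM after MI, with a log2 fold change of -0.66 (standard error 0.18, adjusted p = 0.0116, edgeR). The naive and MI libraries did not overlap in either genotype. The call was lost in control mice without naive control M44 (log2 fold change -0.51, adjusted p = 0.145, edgeR) and in Vegfc-deficient mice without MI Vegfc-deficient M900 (-0.57, adjusted p = 0.0549, edgeR).

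Myocd (chromosome 11, 65176561 to 65269989), the co-activator of SRF, fell further than Srf. It was at 14.4 and 10.97 CPM in naive control and 3.31, 2.15 and 2.385 CPM in MI control hearts. In Vegfc-deficient mice it was at 12.1, 16.3 and 13.1 CPM in naive hearts and 4.47, 2.28 and 1.59 CPM after MI. MI means were 20.6% and 20.0% of the naive means, and the log2 fold changes were -2.27 in control mice (standard error 0.38, adjusted p = 0.00108, edgeR) and -2.33 in Vegfc-deficient mice (standard error 0.36, adjusted p = 0.000403, edgeR). The counts behind these levels were 123 to 159 in naive and 38 to 98 in MI libraries.

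**Figure D2:**
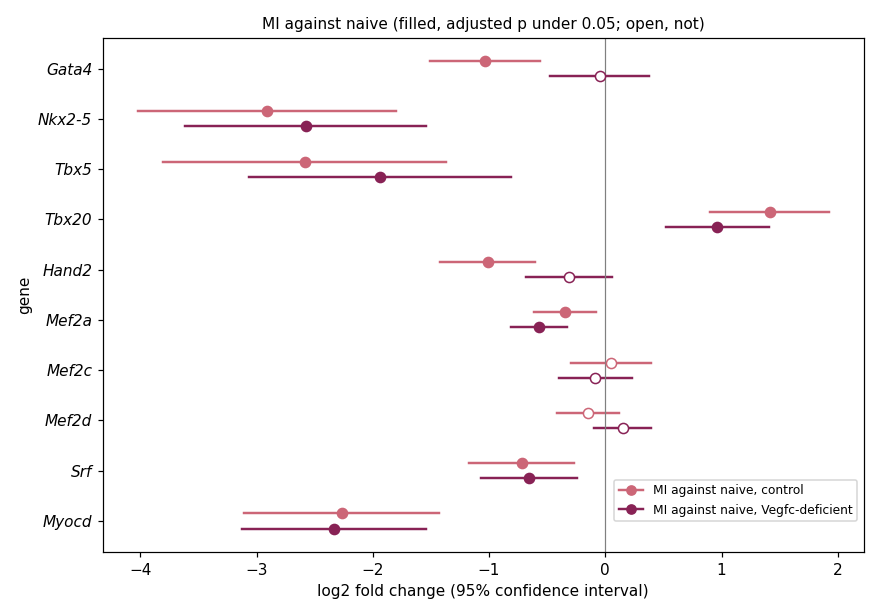
Log2 fold change of MI against naive hearts (horizontal axis) for each of the 10 genes in control (light) and Vegfc-deficient mice (dark), with 95% confidence intervals; filled points had an adjusted p under 0.05. Tbx20 is to the right of 0 in both genotypes, and the points furthest left are Nkx2-5, Tbx5 and Myocd.

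Cell type markers moved with these differences, and their part in them was not tested. For the counts that follow, the shares of all genes were 26.3% higher and 24.1% lower in control mice. In Vegfc-deficient mice they were 30.0% and 27.7%. Of 14 cardiomyocyte markers, 14 fell in control and 12 in Vegfc-deficient mice, with median log2 fold changes of -2.78 and -2.32. Of 10 fibroblast markers, 7 and 8 rose, their summed level being 6182 to 7789 CPM in naive and 33560 to 53880 CPM in MI libraries. The 8 endothelial markers summed to 6534 to 7385 CPM in naive and 1026 to 3395 CPM in MI libraries. Of that, Fabp4 alone was at 5017 to 6111 CPM in naive and 400 to 2079 CPM in MI libraries. Of these 8 markers, 4 were called lower in each genotype and 1 higher in Vegfc-deficient mice. Their median log2 fold changes were -0.81 in control and -0.61 in Vegfc-deficient mice, with 0 and 3 of the 8 above 0. The 8 macrophage markers summed to 1416 to 2240 CPM and 1995 to 4783 CPM, with 4 of 8 higher in each genotype. None of the cardiomyocyte markers was at 0 in any library.

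Each level was also expressed per 100000 counts of the 14 cardiomyocyte markers, which is another denominator and not a test of a cause. Mb weighs most in it, at 35050 to 42190 of the summed 59110 to 70970 CPM in naive libraries. In MI libraries Mb was at 927 to 7743 of 2058 to 17510 CPM. The scale is not a level per cardiomyocyte, since other cells may make a member's RNA. Pearson's r of members with the log2 marker sum ran from -0.854 for Tbx20 to 0.971 for Nkx2-5 over the 11 libraries. This denominator moved the median log2 fold change of all genes to 3.93 in control and 3.28 in Vegfc-deficient mice. Among the 10, only Tbx20 and, in Vegfc-deficient mice, Mef2d stood above that median. On this scale Nkx2-5 was at 71.0 to 90.9 in the 5 naive libraries and at 49.5 to 177 in the 6 MI libraries, so that the groups overlapped. The log2 fold change of MI against naive was 0.36 in control mice (95% confidence interval -1.59 to 2.30, adjusted p = 0.731, edgeR) and 0.21 in Vegfc-deficient mice (interval -1.51 to 1.93, adjusted p = 0.822, edgeR). Tbx5 was at 10.9 to 17.4 in naive and 14 to 57.1 in MI libraries, and Myocd at 17.4 to 23.0 and 21.5 to 116. Neither passed the test in either genotype (log2 fold changes of 0.90 and 0.70 for Tbx5 and of 1.42 and 0.50 for Myocd).

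The other 7 members were higher per cardiomyocyte marker count after MI in both genotypes, against 88.8% of all genes called higher in control and 85.1% in Vegfc-deficient mice. Tbx20 was furthest up, at 84.2 to 124 in naive and 845 to 9128 in MI libraries, a log2 fold change of 5.29 (standard error 1.21, adjusted p = 0.000127, edgeR) and 4.11 (standard error 0.96, adjusted p = 9.86e-05, edgeR). Gata4 was at 74.3 to 128 and 218 to 1703, and Srf at 80.65 to 114 and 202 to 2026. Library MI control M40, with the fewest marker counts, had the highest value of every member on this scale. Without it the log2 fold change in control mice was 1.44 for Gata4 (adjusted p = 0.0537), 1.38 for Hand2 (0.0666), 1.62 for Srf (0.0318), 2.15 for Mef2a (0.00479), 2.58 for Mef2c (0.00131), 2.27 for Mef2d (0.00379) and 3.85 for Tbx20 (1.6e-05) in the same edgeR test, and that of Nkx2-5 was -0.25 (0.746). In Vegfc-deficient mice, leaving out M900 lowered the log2 fold change of Tbx20 to 3.53, of Mef2a to 1.87, of Mef2c to 2.40, of Mef2d to 2.64 and of Hand2 to 2.19, and all 5 were still called (adjusted p = 0.000982 to 0.0499, edgeR). Without M900, Gata4 was at 2.43 and Srf at 1.95. The call of Srf was lost without naive Vegfc-deficient M34 (adjusted p = 0.051, edgeR), which left 6 of the 7 calls. Of the 7 calls in control mice, 2 were left without naive control M45 and 3 without naive control M44.

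**Figure D3:**
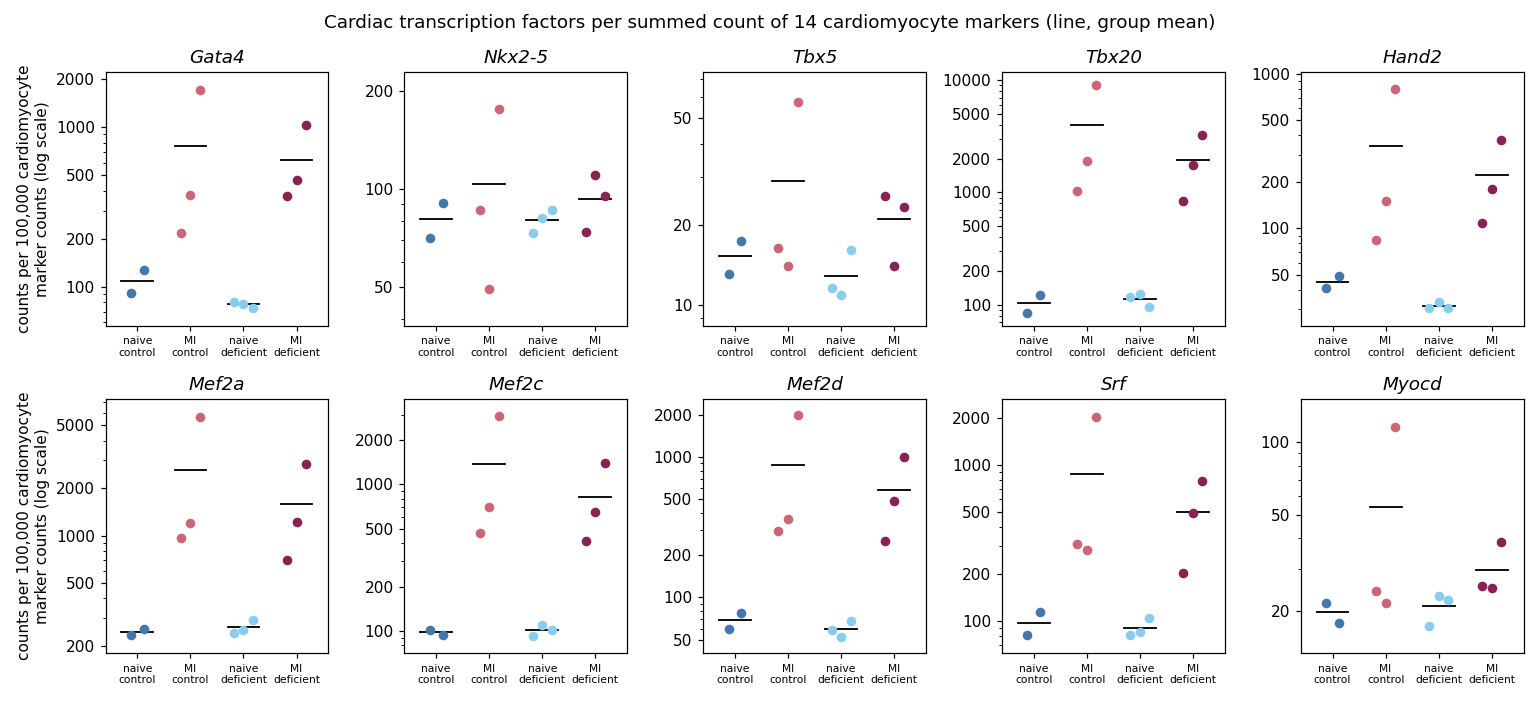
Counts of each gene per 100000 counts of the 14 cardiomyocyte markers (log axis) in every library; points are libraries and lines are group means. Nkx2-5 runs from 49.5 to 177 with MI libraries on both sides of the naive ones, whereas Tbx20 and the Mef2 genes lie higher in all MI libraries.

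To ask whether myeloid Vegfc deficiency moved the network, Vegfc-deficient and control libraries were compared after MI and in naive hearts. After MI, 0 of the 10 members and 0 of 14779 genes (0%) were called by edgeR, with 1 member and 1173 genes at an unadjusted p under 0.05. DESeq2 called 62 genes and limma-voom 0, none of them a member. Gata4 was at 42.7 to 65.1 CPM in Vegfc-deficient and 29.7 to 37.6 CPM in control hearts after MI, each Vegfc-deficient library above each control. Its log2 fold change was 0.56 (standard error 0.19, 95% confidence interval 0.13 to 0.99, adjusted p = 0.584, edgeR). Mef2d also did not overlap (log2 fold change 0.14, interval -0.099 to 0.38, adjusted p = 0.771, edgeR). These are 2 of 10 genes without overlap, against 12.1% of all genes.

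The intervals after MI were widest for the genes that fell most. For Tbx5 the log2 fold change between the genotypes was 0.45 (interval -0.68 to 1.58), for Nkx2-5 0.39 (-0.63 to 1.40) and for Myocd 0.063 (-0.72 to 0.84). They were narrower for Tbx20 at -0.24 (-0.67 to 0.19), Hand2 at 0.24 (-0.12 to 0.61), Srf at 0.0028 (-0.40 to 0.41), Mef2a at -0.073 (-0.31 to 0.17) and Mef2c at -0.036 (-0.34 to 0.27). Adjusted p-values of these 8 genes were 0.733 to 0.998 (edgeR). Each interval holds the differences between the genotypes that 3 libraries a group leave possible. It is not a limit of what would have been called, since the interval of Gata4 left out 0 and the gene was not called.

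In naive hearts, edgeR called 0 of the 10 members and 0 of 14779 genes (0%), with 1 member and 499 genes at an unadjusted p under 0.05; DESeq2 called 14 genes and limma-voom 6, again without a member. Hand2 was at 18.1 to 23.8 CPM in Vegfc-deficient and 27.2 to 30.5 CPM in control libraries, a log2 fold change of -0.45 (interval -0.86 to -0.043, adjusted p = 1, edgeR). Gata4 was at 43.9 to 55.9 CPM against 60.7 to 78.8 CPM (log2 fold change -0.43, interval -0.90 to 0.049, adjusted p = 1, edgeR). Both were lower in each Vegfc-deficient library than in either control, and Mef2a was higher in each (log2 fold change 0.15, adjusted p = 1, edgeR), which makes 3 of 10 genes without overlap, against 22.4% of all genes. Without library M149 the values were -0.36 for Hand2, -0.32 for Gata4 and 0.15 for Mef2a (adjusted p = 0.807, 0.877 and 0.922, edgeR). The other 7 ran from -0.20 for Tbx5 to 0.21 for Tbx20.

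**Figure D4:**
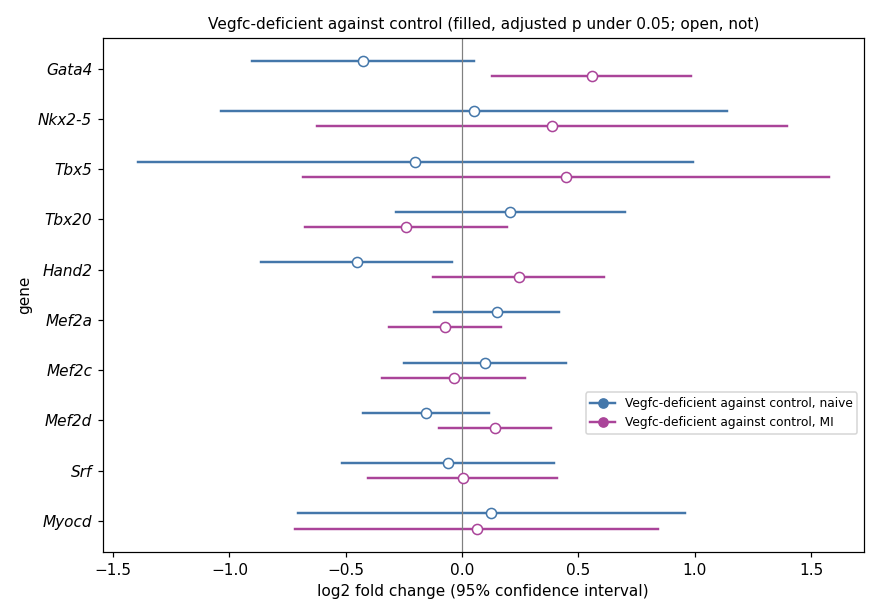
Log2 fold change of Vegfc-deficient against control hearts (horizontal axis) for each of the 10 genes, in naive hearts and after MI, with 95% confidence intervals; open points had an adjusted p of 0.05 or more. All 20 points are open, and Gata4 and Hand2 lie left of 0 in naive hearts and right of 0 after MI.

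A difference between the genotypes in the change after MI was tested as an interaction in the same fit. The edgeR test called 0 of the 10 members and 0 of 14779 genes (0%), with 2 members and 1226 genes at an unadjusted p under 0.05; DESeq2 called 58 genes and limma-voom 0, none a member. The 2 members were Gata4, whose change after MI was 0.98 higher on the log2 scale in Vegfc-deficient mice (standard error 0.29, interval 0.34 to 1.62, adjusted p = 0.534, edgeR), and Hand2, with 0.70 (standard error 0.25, interval 0.15 to 1.25, adjusted p = 0.548, edgeR). Without M149 these were 0.88 and 0.60 (adjusted p = 0.334 and 0.404, edgeR). With 1 library left out, the Gata4 value ran from 0.75 without M35 to 1.16 without naive control M45. M35 was the MI Vegfc-deficient library with the most Gata4. The naive control mean of both genes, on 2 libraries, enters this contrast together with the other 3 group means. In edgeR, the fall of Gata4 and Hand2 passed the threshold in control mice and not in Vegfc-deficient mice, where limma-voom did call Hand2, and the difference between the genotypes in that fall did not pass.

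Partners and targets of the network were counted from lists chosen with earlier results of these data known. Of all genes, 26.3% were called higher and 24.1% lower in control mice, and 30.0% higher and 27.7% lower in Vegfc-deficient mice. Of 21 other cardiac transcription factors and cofactors, 18 were tested, and 2 rose and 6 fell in control and 4 rose and 6 fell in Vegfc-deficient mice. Among those that fell were Hopx, an atypical homeodomain cofactor that restrains SRF (log2 fold change -3.54 in control and -3.42 in Vegfc-deficient mice), Smyd1, a muscle methyltransferase (-3.17 and -2.32), and the Iroquois factors Irx4 (-2.93 and -2.42) and Irx3 (-2.37 and -2.15). Tbx18, a T-box factor of the epicardium and mural cells, rose (1.37 and 1.57), as did Vgll4, a cofactor of TEAD proteins (1.06 and 1.01). Hand1 and Isl1 were under the filter, and the highest value of either in any library was 0.176 CPM. Adjusted p-values of the 6 named genes ran from 0.000143 to 0.0126 (edgeR).

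Of 11 regulators of MEF2 and SRF, 3 rose and 4 fell in each genotype, shares near those of all genes (26.3% higher and 24.1% lower in control, 30.0% and 27.7% in Vegfc-deficient mice). Fhl2, a cofactor with LIM domains that binds SRF, fell (log2 fold change -2.39 in control and -2.72 in Vegfc-deficient mice), and Abra, which promotes nuclear entry of myocardin-related factors, fell too (-2.53 and -2.16). Mrtfa, a myocardin-related co-activator of SRF, rose (1.15 and 1.31), and so did Cabin1, a repressor of MEF2 (0.70 and 1.02). Their adjusted p-values were 0.000157 to 0.00964 (edgeR).

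Targets split by tissue. Of 18 cardiac muscle target genes, 2 rose and 13 fell in control and 2 rose and 12 fell in Vegfc-deficient mice, with medians of -2.24 and -1.51. The shares of all genes were 26.3% higher and 24.1% lower in control, and 30.0% and 27.7% in Vegfc-deficient mice. Tnni3, cardiac troponin I (-3.54 and -3.20), Myl2, the ventricular myosin light chain (-3.46 and -2.73), Atp2a2, the calcium pump SERCA2 (-3.33 and -2.62), and Tnnt2, cardiac troponin T (-3.03 and -2.56), had the largest falls by the mean of both genotypes. Nppa, whose window with GATA, NKX2-5 and T-box letters is printed above, rose (2.21 with adjusted p = 0.0199, and 2.22 with adjusted p = 0.00782, edgeR), from 387 to 1240 CPM in naive to 1406 to 5811 CPM in MI libraries. Gja5, encoding connexin 40, rose as well (1.89 and 1.64).

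Most smooth muscle targets of SRF and myocardin went the other way from Srf and Myocd. Of 12, 9 rose, 0 fell and 3 were not called in each genotype, with medians of 1.62 and 2.32. Log2 fold changes were below 0 for 3 of the 12 in control and 2 in Vegfc-deficient mice. Of all genes, 26.3% were called higher in control and 30.0% in Vegfc-deficient mice. Actg2, a smooth muscle actin (log2 fold change 5.16 in control and 3.82 in Vegfc-deficient mice), Cnn1, calponin (4.87 and 3.50), Tagln, transgelin (4.01 and 3.24), and Acta2, alpha smooth muscle actin (2.63 and 2.49), rose most by the mean of both genotypes. Of 8 immediate early targets of SRF, 6 rose and 0 fell in each genotype, with Ccn1 (2.94 and 2.74), Fosb (2.34 and 3.17), Egr3 (2.68 and 1.92) and Fos (2.16 and 1.77) the highest by the same mean. Acta2, Tagln and Cnn1 are also made by activated fibroblasts, whose marker sums are given above. The 8 smooth muscle and pericyte markers share Cnn1 and Myh11 with the targets. They summed to 1685 to 2061 CPM in naive and 972 to 1408 CPM in MI libraries. Of these 8 markers, 4 were called higher and 3 lower in each genotype.

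**Figure D5:**
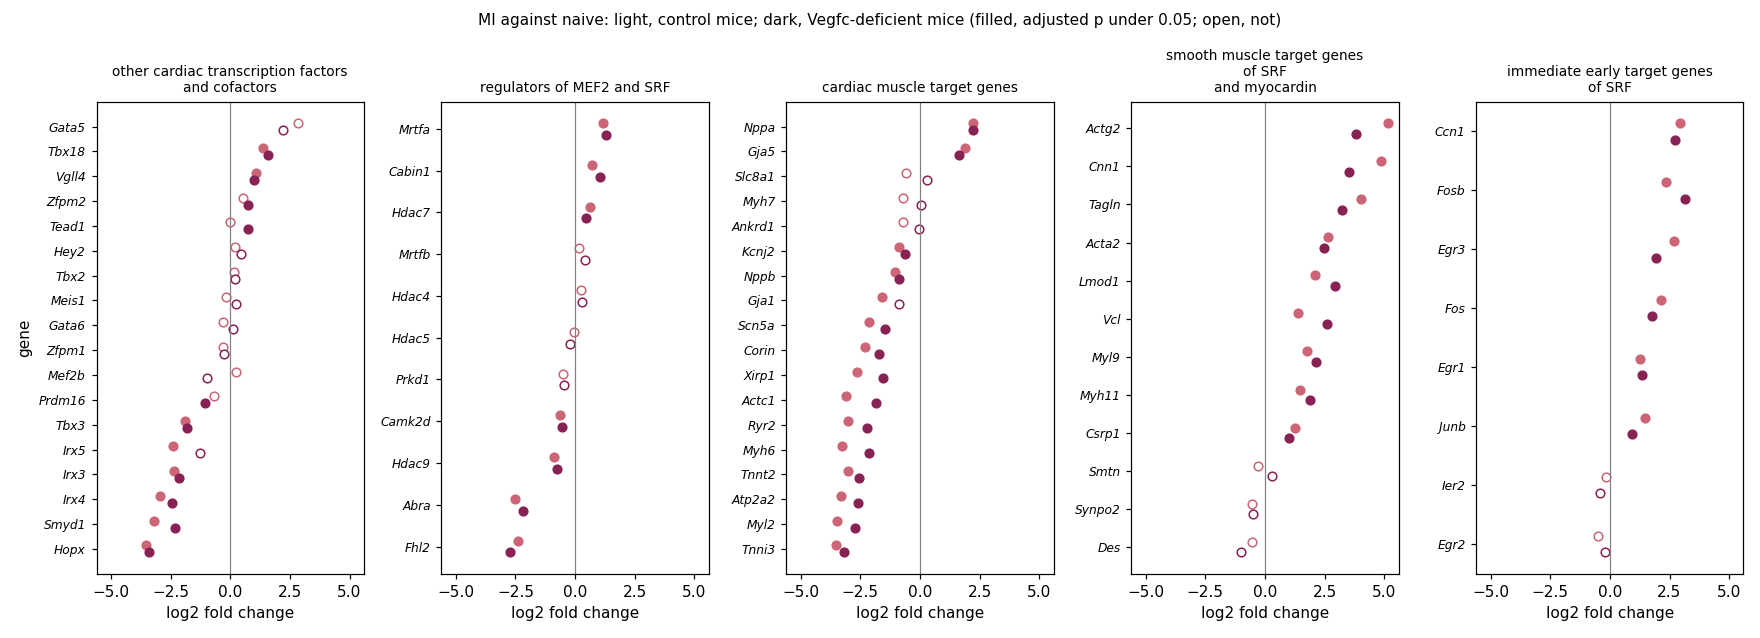
Log2 fold change of MI against naive hearts (horizontal axis) for each tested gene of 5 lists, in control (light) and Vegfc-deficient mice (dark); filled points had an adjusted p under 0.05. Called cardiac muscle targets lie left of 0 apart from Nppa and Gja5, while 9 of 12 smooth muscle and 6 of 8 immediate early targets are filled and right of 0.

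Genes with the most similar pattern were found by Pearson's r of log2 CPM over the 11 libraries, given as a description because the libraries fall into naive and MI sets. Nearest to Nkx2-5 were the potassium channel gene Kcnk3, Dnaja4 and Gmpr (r = 0.995 for each), and nearest to Myocd were March6, Nmnat3 and Lyrm7 (0.991 to 0.995). Tbx5 was closest to Plin4, Myo5b and Pirt (0.986 to 0.990), and Mef2a to 0610009B22Rik, Usp15 and Ccng1 (0.988 to 0.990). Tbx20 was closest to Adamtsl2, Adcy2 and Lrrc45 (0.979 to 0.982), Srf to Pepd, Rapsn and Map7d1 (0.955 to 0.979), and Hand2 to Nprl3, Psmg2 and Nprl2 (0.954 to 0.965). Gata4 was closest to Yap1, Utp4 and Arhgap31 (0.934 to 0.952). Lower values were reached for Mef2d with Rab35, Pip4k2c and Wdtc1 (0.865 to 0.907) and for Mef2c with Plscr2, Fam92a and Gemin2 (0.853 to 0.885).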

How the data were processed

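Stranded mRNA libraries from the left ventricle of 11 mice were used. Per the labels, reads were trimmed with cutadapt 1.13, aligned with STAR to mm10 and counted with HTSeq 0.6.1p1, and DESeq2 1.14.1 was listed among the tools; the strand setting and annotation release are not given in the sources used here. The authors deposited raw counts for 25006 Ensembl genes in 1 table per sample, without normalization. Symbols, positions and exon lengths came from GENCODE M21 (GRCm38). Groups followed the sample titles. Counts were scaled by TMM, filtered by edgeR's filterByExpr and tested with edgeR 4.0.16 (R 4.3.3) in 1 quasi-likelihood fit of all 11 libraries, with Benjamini-Hochberg adjustment and a threshold of 0.05. The standard error is the log2 fold change divided by the root of F. A further fit replaced library sizes by the summed counts of 14 cardiomyocyte markers. DESeq2 1.42.0 and limma 3.58.1 (voom), other filters and scalings, and leaving out each library were alternatives. The procedure was tested on simulated counts in which chosen genes differed between the MI groups. Those counts held no change after MI and no shift of cell types, so they do not bear on the MI comparisons. The members and all gene lists were chosen with earlier results of these data known. The text names every member. From each other list it names up to 4 called genes with the largest mean change over both MI comparisons, up to 2 called the opposite way and those under the filter, 1 of which is not reported here. It also names the 3 genes (mean of at least 5 CPM) most like each member. Hand2os1 and Lysmd4 are named for overlapping a member, and Mef2b for its direction, after its values were seen. Nothing beyond 1 mouse per library is stated. The p-values set each difference against the spread between mice, estimated in 1 fit of all 4 groups.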

Additional observations from a re-analysis of the deposited data

Results flagged for a closer look

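Among 77 members, partners and targets tested, 2 genes were singled out because all 3 MI libraries of one genotype lay below, and all 3 of the other above, the naive mean of their own genotype. The share of all genes that meet this rule was not computed, so 2 of 77 is not read as a result about the list. For Mef2d, MI control libraries (36.4 to 40.9 CPM) were below the naive control mean of 43.7 CPM and MI Vegfc-deficient libraries (41.6 to 44.4 CPM) above the naive Vegfc-deficient mean of 39.2 CPM. The difference between the genotypes in log2 fold change was 0.30 (standard error 0.16, adjusted p = 0.638, edgeR's interaction test), so it did not pass. For Mef2b, a low member of the same family (naive means of 0.628 and 0.549 CPM), the difference was -1.24 (adjusted p = 0.789, edgeR's interaction test), control mice being up and Vegfc-deficient mice down. Its counts were only 0 to 25 per library. Groups of 2 or 3 libraries were too small for a check for single outlying libraries.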

How the results depend on the processing

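The counts of members called stayed within 1.5 times their value under every alternative, except per cardiomyocyte marker count in control mice, where leaving out 1 library gave 2 to 7. With TMM-scaled counts it ranged from 6 to 8 in control and 5 to 7 in Vegfc-deficient mice. Single members changed call outside of leave-one-out for Mef2a in control mice, which was lost with no filter (adjusted p = 0.0823) and with the compared groups alone (0.0819), and for Hand2 in Vegfc-deficient mice, which limma-voom called. The cause of these changes was not tested. Signs reversed only for differences that were not called. Mef2c in control mice was -0.012 with DESeq2's size factors and its Wald test. Between the genotypes after MI, Srf was -0.0012 with DESeq2 size factors, -0.0014 with the Wald test, -0.0011 with a mean of at least 1 CPM and -0.0018 with the compared groups alone, and limma-voom gave -0.19 for Tbx5 and -0.24 for Myocd. Per cardiomyocyte marker count, metabolic markers gave 0.23 for Gata4, 0.26 for Nkx2-5 and 0.052 for Tbx5 between the genotypes after MI, and the geometric mean gave -0.19 (MI, Vegfc-deficient mice) and 0.026 (genotype, naive) for Nkx2-5. With single libraries left out, sign changes occurred in the following ranges of log2 fold change. For MI against naive, they were Mef2c -0.057 to 0.17 in control and Gata4 -0.28 to 0.053 and Mef2c -0.19 to 0.032 in Vegfc-deficient mice. Between genotypes after MI, they were Tbx5 -0.52 to 0.84, Mef2a -0.11 to 0.015, Mef2c -0.14 to 0.051, Srf -0.16 to 0.13 and Myocd -0.44 to 0.37. In naive hearts, they were Nkx2-5 -0.069 to 0.18, Mef2c -0.019 to 0.21, Srf -0.24 to 0.14 and Myocd -0.061 to 0.33. For the interaction, they were Nkx2-5 -0.013 to 1.06, Tbx5 -0.31 to 1.04, Srf -0.14 to 0.25 and Myocd -0.57 to 0.25. Per cardiomyocyte marker count, MI against naive in control mice gave Nkx2-5 -0.25 to 0.69 and Tbx5 -0.0019 to 1.24. The genotypes after MI on that scale gave Gata4 -0.86 to 1.07, Nkx2-5 -0.49 to 0.45, Tbx5 -0.78 to 0.46, Tbx20 -1.64 to 0.40, Mef2a -1.44 to 0.55, Mef2c -1.36 to 0.49, Mef2d -1.26 to 0.81, Hand2 -1.24 to 0.90, Srf -1.33 to 0.73 and Myocd -1.23 to 0.36, the upper ends of which came without MI control M40. In naive hearts they were Nkx2-5 -0.17 to 0.18, Tbx20 -0.11 to 0.41, Mef2c -0.018 to 0.11, Srf -0.34 to 0.16 and Myocd -0.055 to 0.23. Leaving out 1 naive control library leaves 1, assumed to vary like the other groups. No paired analysis was possible because the groups share no mouse numbers. Tbx5 and Myocd had the lowest counts of the members, 23 to 76 and 38 to 98 in MI libraries. How far depth limited their results was not tested.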
